A study of Homo sapiens with 12 samples.

Results

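PAG1, its partner kinase CSK, the SRC family kinases SRC, FYN, YES1 and LYN, and the tyrosine phosphatases PTPN11 and PTPRA were examined in SK-UT-1 cells, an established uterine leiomyosarcoma (uLMS) cell line, after BET protein inhibition. These 8 genes were taken by symbol from a normalized RNA-seq expression table of 22784 gene symbols, and all 8 were among the 14839 genes tested. PAG1 was selected on its measured fold changes in these same libraries, because it showed the largest increase shared by both inhibitors. Its change is therefore given without a test. The other 7 genes were chosen for their roles beside it.

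The RNA-seq libraries came from cells treated for 48 h with DMSO vehicle, with 5 µM JQ1 or with 5 µM I-BET 762, and 3 DMSO, 4 JQ1 and 3 I-BET 762 libraries were analysed. Both compounds are triazolodiazepines that bind BET bromodomains in place of acetylated lysine. JQ1 carries a thiophene ring fused to the diazepine where I-BET 762 carries a benzene ring, and their side chains differ as well. All groups share 1 cell line, and no source used here says that the replicates were separate cultures, so the p-values measure only the spread between these libraries. Between 35564590 and 39658988 reads per library were assigned to genes.

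The SRC family kinases are membrane-bound tyrosine kinases that pass signals from integrins and growth factor receptors to adhesion, migration and proliferation. CSK switches them off by phosphorylating a tyrosine in their tail, and PAG1, a transmembrane adaptor of lipid rafts, brings CSK to the membrane once PAG1 itself has been phosphorylated. PTPRA removes the tail phosphate and so activates the kinases, while PTPN11 (SHP2) can dephosphorylate PAG1 and transmits receptor signals toward RAS and ERK.

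The label of the cell line was checked against marker genes. The smooth muscle markers ACTA2 and CALD1 were detected in every library at 2684 or more normalized counts, MYOCD lay between 0 and 1.10, and MYH11 was not analysed here. TAGLN had means of 1599 normalized counts in DMSO, 126 in JQ1 and 157 in I-BET 762 libraries. The means were 95.4, 7.06 and 14.5 for CNN1 and 187, 7.79 and 20.1 for DES in that order. ACTA2 and CALD1 make up most of the following sum. The summed normalized count of the 6 smooth muscle markers in the table ran from 17766 to 18836 in DMSO, from 7935 to 8620 in JQ1 and from 9189 to 9600 in I-BET 762 libraries. The leukocyte gene PTPRC was at 0 in 9 of 10 libraries, and the sum of the 6 leukocyte markers in the table ran from 51.0 to 73.6, from 46.0 to 56.6 and from 25.6 to 40.3. The sum of the 5 epithelial markers ran from 1212 to 1271, from 511 to 602 and from 497 to 544 in the same order, and that of the 3 endothelial markers did not exceed 7.40 in any library. The smooth muscle and epithelial sums thus were lower with both inhibitors and the leukocyte sum with I-BET 762, without overlap with DMSO, and their part in the results below was not tested. As a check of BET inhibition, HEXIM1, a transcriptional regulator that commonly rises when BET proteins are inhibited, increased with JQ1 (log2 fold change 1.53, SE 0.05, limma adjusted p = 3.77e-13) and with I-BET 762 (1.05, SE 0.05, limma adjusted p = 1.86e-10). MYC, which often falls under BET inhibition, was higher here in every treated library, with means of 5176, 10372 and 7517 normalized counts (limma adjusted p = 1.28e-10 with JQ1 and 8.22e-07 with I-BET 762).

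PAG1 (ENSG00000076641.4, chromosome 8, 80967810 to 81112068, minus strand, GRCh38) was low in the 3 DMSO libraries, with 35.8, 28.7 and 31.9 normalized counts, that is, read counts divided by the scaling factor of each library. The 4 JQ1 libraries held 929.6, 920.5, 932.4 and 930.1, and the 3 I-BET 762 libraries 727, 741 and 872. Every treated library was far above every DMSO library, and every JQ1 library was above every I-BET 762 library. The group means were 32.1 ± 3.59 in DMSO (SD, n = 3), 928 ± 5.26 in JQ1 (SD, n = 4) and 780 ± 80.1 in I-BET 762 libraries (SD, n = 3). Means below are given in this order and with the SD over the same numbers of libraries. The DMSO values rested on 37, 31 and 35 reads. Those of JQ1 rested on 846, 846, 932 and 917 reads. Their SD of 5.26 is smaller than counting that many reads gives on average, so it is no measure of precision. On the log2 scale the increase was 4.82 (SE 0.09) with JQ1 and 4.56 (SE 0.10) with I-BET 762, equal to a 28.2-fold and a 23.6-fold increase on the scale of log2(normalized count + 1). It ranked 1 of 14839 in both comparisons. Among the 1166 genes that rose more than 1.5-fold with both inhibitors, the next after PAG1, ordered by the smaller of the 2 log2 fold changes, was LINC01419 at 4.08, against 4.56 for PAG1. These values chose the gene and are a description.

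**Figure D1:**
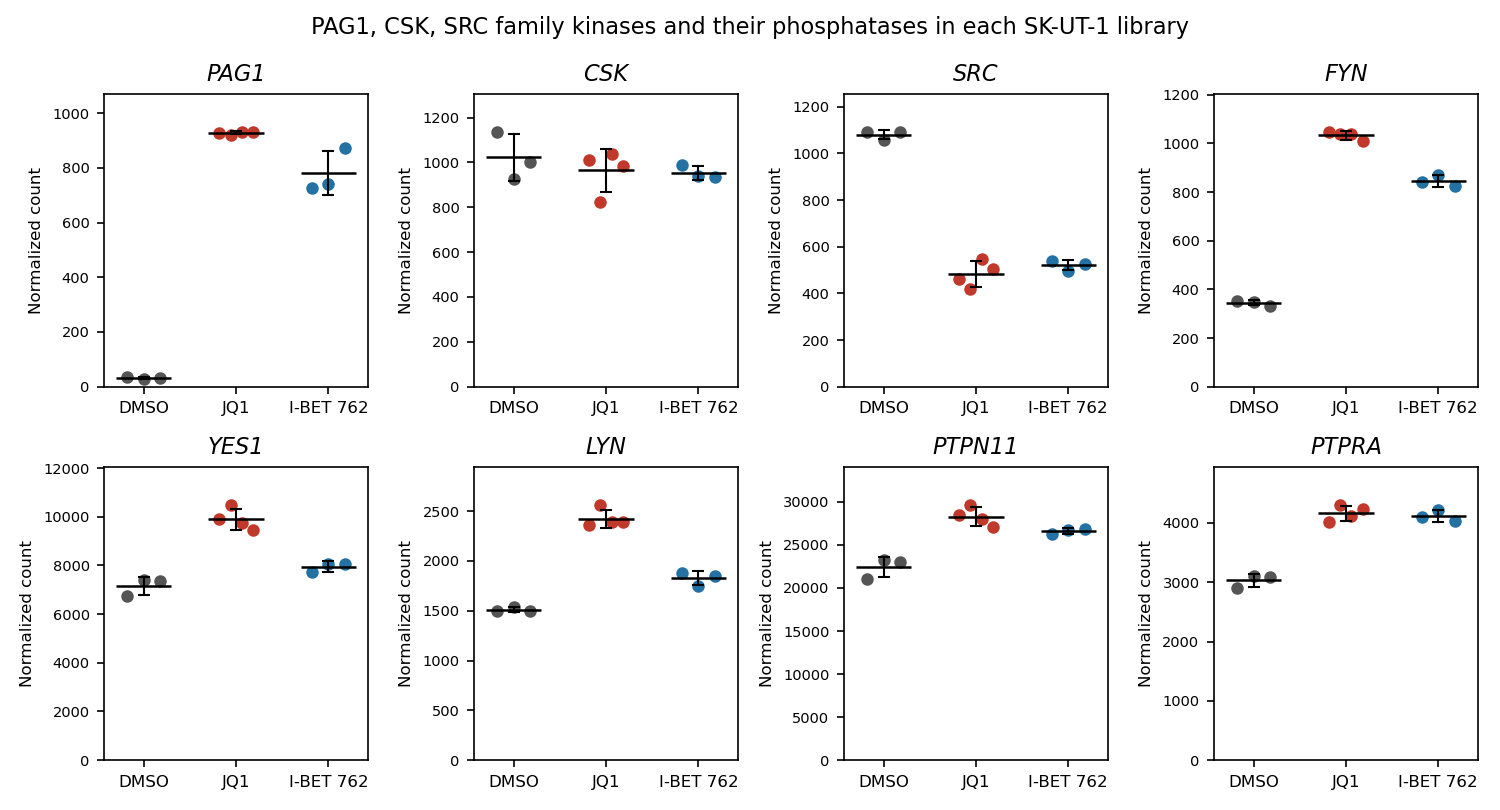
Normalized counts (linear axes, with a scale that differs between genes) of the 8 genes in each of the 10 libraries. Points are libraries, horizontal bars are group means and error bars are the SD. The PAG1 points move from near 32.1 to near 928 and 780, the SRC points fall, the FYN points rise, and the CSK points of the 3 groups overlap.

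CSK (ENSG00000103653.17, chromosome 15, 74782080 to 74803197, plus strand), the kinase that PAG1 recruits, did not pass the test in any comparison. The DMSO libraries held 1137, 926 and 1004 normalized counts, the JQ1 libraries 1012, 824, 1038 and 983, and the I-BET 762 libraries 989, 937 and 935. The 3 groups overlapped, with means of 1022 ± 107, 964 ± 96.4 and 954 ± 30.4. The log2 difference from DMSO was -0.09 with JQ1 (95% interval -0.26 to 0.09, limma adjusted p = 0.372) and -0.10 with I-BET 762 (95% interval -0.28 to 0.09, limma adjusted p = 0.371). When the libraries were instead rescaled to equal totals, the median of all tested genes moved to -0.18 with JQ1, and CSK had a log2 difference of -0.27 (limma adjusted p = 0.0246), which is -0.09 relative to that median.

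SRC (ENSG00000197122.13, chromosome 20, 37344685 to 37406050, plus strand), the founding kinase of the family, fell with both inhibitors. Its normalized counts were 1092, 1057 and 1093 in DMSO, 460.4, 417, 548 and 503 in JQ1, and 539, 496 and 527 in I-BET 762 libraries. No treated library reached the DMSO range, while the JQ1 and I-BET 762 libraries overlapped. The means were 1081 ± 20.8, 482 ± 56.5 and 521 ± 22.1. SRC had a log2 fold change of -1.17 with JQ1 (SE 0.08, limma adjusted p = 3.39e-09), and it was -1.05 with I-BET 762 (SE 0.09, limma adjusted p = 5.80e-08). These values correspond to 2.25-fold and 2.07-fold lower levels.

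FYN (ENSG00000010810.18, chromosome 6, 111660332 to 111873452, minus strand), a family member that works in adhesion signaling and phosphorylates PAG1, changed in the opposite direction. Its normalized counts were 354, 347 and 333 in DMSO, 1048, 1039, 1037 and 1008 in JQ1, and 840.3, 871 and 824 in I-BET 762 libraries. The 3 groups did not overlap, with JQ1 highest and DMSO lowest, and the means were 344 ± 10.4, 1033 ± 17.4 and 845 ± 24.0. FYN gained 1.58 on the log2 scale with JQ1 (SE 0.06, limma adjusted p = 1.77e-12) and 1.29 with I-BET 762 (SE 0.06, limma adjusted p = 1.21e-10), that is, 2.99-fold and 2.45-fold.

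YES1 (ENSG00000176105.14, chromosome 18, 721588 to 812546, minus strand), a widely expressed relative of SRC, increased by less than 1.5-fold. The normalized counts were 6736, 7403 and 7342 in DMSO, 9909, 10471, 9736 and 9469 in JQ1, and 7714, 8073 and 8076 in I-BET 762 libraries. The 3 groups did not overlap, but the I-BET 762 libraries lay close to the DMSO libraries, with means of 7160 ± 369, 9896 ± 424 and 7954 ± 208. For JQ1 the log2 fold change was 0.47 (SE 0.05, limma adjusted p = 3.64e-07) and 0.15 with I-BET 762 (SE 0.05, limma adjusted p = 0.0195). The I-BET 762 call was lost with equal totals (0.06, limma adjusted p = 0.248), without DMSO replicate 13 (0.11, limma adjusted p = 0.105) and without I-BET 762 replicate 22 (0.14, limma adjusted p = 0.0696) or 23 (0.14, limma adjusted p = 0.0661). Its adjusted p ranged from 0.00332 to 0.248 over the alternatives. YES1 exons share 154 and 159 bases with a pair of antisense RNAs that have no entry in the table, and 2 of its 63 exon stretches of 75 bases have an exact copy elsewhere in the genome.

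LYN (ENSG00000254087.8, chromosome 8, 55879835 to 56014169, plus strand), best known from blood cells, was also expressed here and rose with both inhibitors. The normalized counts were 1494, 1537 and 1493 in DMSO, 2356, 2558, 2390.1 and 2388 in JQ1, and 1882, 1744 and 1849 in I-BET 762 libraries. The 3 groups did not overlap, and the means were 1508 ± 25.2, 2423 ± 91.4 and 1825 ± 71.9. LYN rose by 0.68 on the log2 scale with JQ1 (SE 0.05, limma adjusted p = 4.68e-09), past 1.5-fold, and 0.27 with I-BET 762 (SE 0.05, limma adjusted p = 0.000336). With equal totals the JQ1 value was 0.50, under 1.5-fold, and 0.67 relative to the median of all genes. In bulk RNA a change in the number of cells of a type and a change in RNA per cell cannot be told apart. PTPRC, the defining leukocyte marker, was at 0 in all JQ1 and all DMSO libraries, while other leukocyte markers were detected, with means of 28.9 for CD14, 29.5 for ITGAM and 3.15 for CD79A in DMSO, 32.5, 9.43 and 8.41 in JQ1, and 20.1, 7.95 and 6.92 in I-BET 762. The part of these markers in the LYN result was not tested.

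PTPN11 (ENSG00000179295.19, chromosome 12, 112418351 to 112509918, plus strand), the phosphatase SHP2, was the most abundant of the 8 genes per kilobase of exon and increased with both inhibitors by less than 1.5-fold. Its normalized counts were 21075, 23276 and 22981 in DMSO, 28457, 29610.4, 28043 and 27044 in JQ1, and 26266, 26713 and 26873 in I-BET 762 libraries. The groups did not overlap, and the means were 22444 ± 1195, 28289 ± 1062 and 26618 ± 315. PTPN11 rose by 0.33 on the log2 scale with JQ1 (SE 0.05, limma adjusted p = 1.76e-05) and 0.25 with I-BET 762 (SE 0.05, limma adjusted p = 0.000831). PTPN11 exons share 111 bases, or 0.825% of their length, with RPL6 on the opposite strand. The libraries were strand-specific but the strand setting of the counting is not given in the sources used here, and 5 of the 171 exon stretches of 75 bases have an exact copy elsewhere.

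PTPRA (ENSG00000132670.21, chromosome 20, 2873420 to 3039076, plus strand), the receptor phosphatase that activates SRC family kinases, rose to nearly the same level with either inhibitor. Its normalized counts were 2897, 3110.0 and 3080.5 in DMSO, 4007, 4297, 4108 and 4231 in JQ1, and 4095, 4224 and 4035 in I-BET 762 libraries. All treated libraries were above all DMSO libraries, and the 2 treated groups overlapped. The means were 3029 ± 116, 4161 ± 129 and 4118 ± 96.4. The log2 fold change was 0.46 with JQ1 (SE 0.05, limma adjusted p = 2.01e-07) and 0.44 with I-BET 762 (SE 0.05, limma adjusted p = 1.15e-06).

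To show the regulatory sequence beside these changes, the stretches directly before the first Gencode V44 exon of FYN and PTPRA, 2 genes that rose, are given. They come from the RefSeq promoter entries (GRCh38.p14), which matched 4 of the 8 genes. FYN and PTPRA have further entries at other positions, which are not printed. Where those held bases before an exon, none of the motifs named below was found. The FYN stretch of 250 bases is chr6:111873453-111873702 on the minus strand and the PTPRA stretch of 189 bases is chr20:2873231-2873419 on the plus strand. Both are written 5′ to 3′ and end at the base directly before the first annotated exon base. Capitals mark matches on either strand to the GC box (GGGCGG) and the CCAAT box (CCAAT).
FYN: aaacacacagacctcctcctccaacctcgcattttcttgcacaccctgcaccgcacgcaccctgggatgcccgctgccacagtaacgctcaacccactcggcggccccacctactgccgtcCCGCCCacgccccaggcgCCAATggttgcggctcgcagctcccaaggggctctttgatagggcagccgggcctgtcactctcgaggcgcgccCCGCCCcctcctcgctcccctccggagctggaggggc
PTPRA: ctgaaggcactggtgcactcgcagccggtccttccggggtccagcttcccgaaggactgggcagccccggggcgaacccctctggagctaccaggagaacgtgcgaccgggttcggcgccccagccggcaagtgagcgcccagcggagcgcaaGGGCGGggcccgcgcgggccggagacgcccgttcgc
The FYN stretch held GC boxes 129 and 37 bases and a CCAAT box 111 bases before the exon, and the PTPRA stretch held a GC box 36 bases before it. Of the 35116 promoter entries, 42.6% held a GC box and 32.0% a CCAAT box in their first 250 bases, and 32.8% held a GC box in their first 189 bases. Neither stretch contained the TATA box (TATAAA), the E-box (CACGTG) or the AP-1 motif (TGANTCA), which were found in 10.7%, 6.34% and 6.57% of entries over the first 250 bases and in 7.38%, 4.10% and 4.93% over the first 189 bases. The GC content of the whole 300-base entries that hold the printed stretches was 69.0% for FYN and 71.7% for PTPRA, with 26 and 38 CpG. The medians over all entries were 58.7% and 14. These matches describe the letters of the windows, and no binding was measured.

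With JQ1, 2 of the 7 genes beside PAG1 rose more than 1.5-fold (FYN and LYN), 1 fell (SRC), and 4 did not pass both thresholds, where 36.1% of all tested genes were called (13.3% higher and 22.8% lower). By adjusted p alone 5 were higher, 1 was lower and CSK did not pass, where 71.7% of all tested genes passed (36.0% higher and 35.6% lower). For 6 of the 7 the libraries did not overlap, against 68.4% of all tested genes (34.1% higher and 34.3% lower). With I-BET 762, FYN rose and SRC fell by more than 1.5-fold, where 26.9% of tested genes were called (8.96% higher and 17.9% lower). Here 5 genes were higher and 1 lower by adjusted p alone, against 61.1% of all tested genes (29.9% higher and 31.3% lower), and 6 did not overlap, against 71.0% (34.8% higher and 36.2% lower). These shares are to be read only against that background, and no test of the 7 genes as a list was made. The median log2 fold change of the 7 genes was 0.46 with JQ1 and 0.25 with I-BET 762, beside 0.01 and -0.00063 over all tested genes. The 2 comparisons share their DMSO libraries. Over all genes, 1979 rose and 3379 fell with JQ1, and 1222 rose and 4217 fell after rescaling to equal totals.

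**Figure D2:**
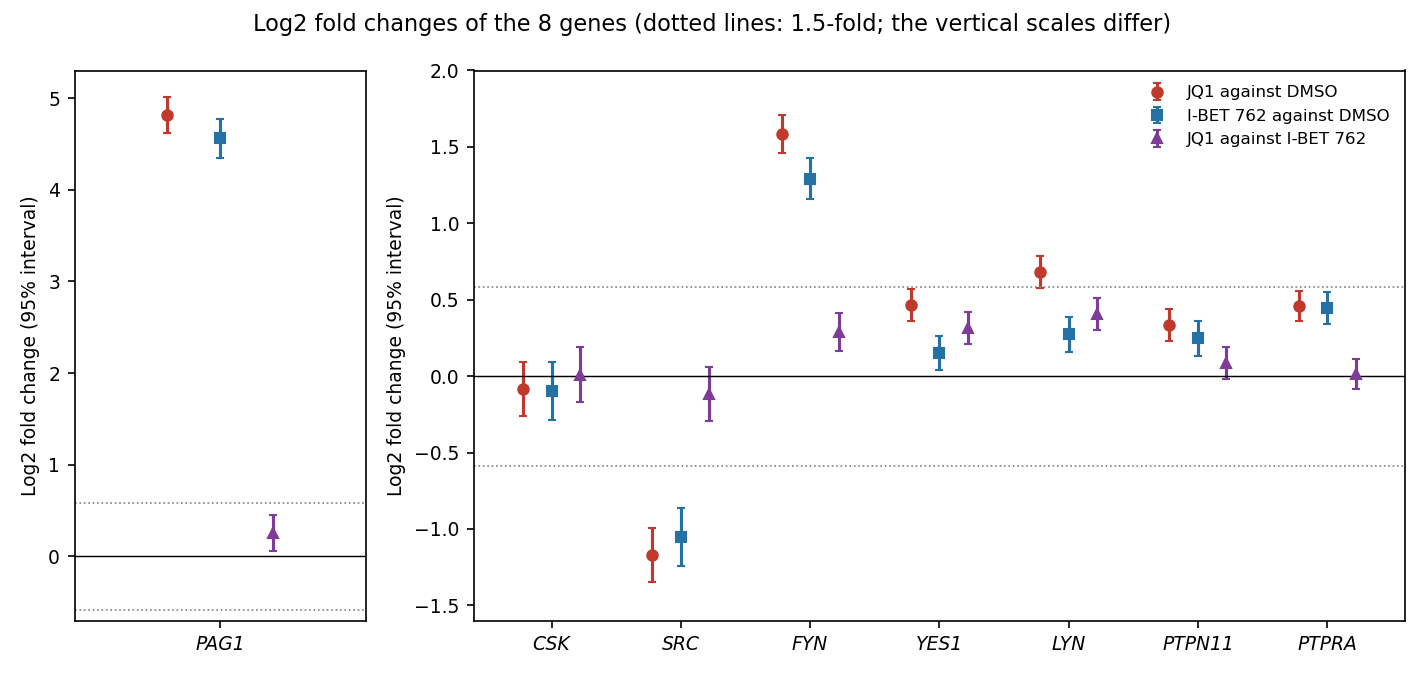
Log2 fold changes of the 8 genes with their 95% intervals from limma, for each inhibitor against DMSO and for JQ1 against I-BET 762. SRC lies near -1.17 and -1.05 and FYN near 1.58 and 1.29, the intervals of CSK include 0, and PAG1 is drawn as a description without a test.

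The inhibitors were then compared with each other at the same dose and time, over the 7 genes beside PAG1 and with p-values adjusted over all 14839 genes. FYN, YES1 and LYN were higher with JQ1 than with I-BET 762 by adjusted p, none by more than 1.5-fold, where 27.3% of tested genes differed by adjusted p alone (13.3% higher and 14.0% lower) and 5.31% also by over 1.5-fold (1.73% higher and 3.59% lower). FYN differed by 0.29 on the log2 scale (95% interval 0.17 to 0.41, limma adjusted p = 0.00195), YES1 by 0.31 (SE 0.05, limma adjusted p = 0.000270) and LYN by 0.41 (SE 0.05, limma adjusted p = 3.09e-05). The median of the 7 differences was 0.09, beside -0.00012 for all tested genes. No difference passed the test for SRC (-0.12, 95% interval -0.29 to 0.06, limma adjusted p = 0.318), CSK (0.01, 95% interval -0.17 to 0.19, limma adjusted p = 0.942), PTPRA (0.01, 95% interval -0.08 to 0.11, limma adjusted p = 0.844) or PTPN11 (0.09, 95% interval -0.02 to 0.19, limma adjusted p = 0.212). The PTPN11 libraries of the 2 groups nevertheless did not overlap, as was the case for 4 of the 7 genes and for 33.8% of all tested genes (17.5% higher and 16.3% lower). The PAG1 difference between the inhibitors was 0.26 (95% interval 0.06 to 0.45), given as a description. Over all genes, 256 were higher and 532 lower with JQ1 by more than 1.5-fold, and 172 and 782 after rescaling to equal totals.

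Levels can be compared between genes only per length, so normalized counts were divided by the kilobases of exon of each gene. In DMSO the order of mean levels was PTPN11 (1668 per kilobase), YES1 (1404), PTPRA (775), LYN (245), CSK (225), SRC (151), FYN (46.5) and PAG1 (2.91), and of the neighbours in this order LYN and CSK overlapped between libraries. In JQ1 the upper end was unchanged in order, with PTPN11 (2102), YES1 (1940.5), PTPRA (1064), LYN (393) and CSK (212), and the lower end became FYN (139), PAG1 (84.2) and SRC (67.5). There PTPN11 and YES1 overlapped. In I-BET 762 the levels were PTPN11 (1978), YES1 (1559.7), PTPRA (1053), LYN (296), CSK (209.8), FYN (114), SRC (72.9) and PAG1 (70.8), and SRC overlapped PAG1. The order of close neighbours depended on the length used. With the longest transcript, SRC (101) lay above PAG1 (86.4) in JQ1 and SRC (109) above PAG1 (72.6) in I-BET 762, while CSK lay above LYN in DMSO (373 against 257) and in I-BET 762 (348 against 311).

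The ratio of PAG1 to CSK per kilobase was 0.0129 ± 0.000169 in DMSO, 0.400 ± 0.0414 in JQ1 and 0.338 ± 0.0420 in I-BET 762 libraries. By this measure CSK lay above PAG1 in every group. With the length of the longest transcript in place of all exons, the ratio was 0.00802, 0.248 and 0.209.

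Among the 4 SRC family kinases, SRC lay above FYN in DMSO and FYN lay above SRC in both treated groups. The FYN to SRC ratio per kilobase was 0.307 ± 0.0119 in DMSO, 2.09 ± 0.261 in JQ1 and 1.57 ± 0.108 in I-BET 762 libraries, and 0.421, 2.86 and 2.15 with the longest transcript. SRC made up 8.21%, 2.67% and 3.57% of the summed level of the 4 kinases, and FYN 2.52%, 5.49% and 5.58%. YES1 supplied most of the sum in each group, with 76.0%, 76.4% and 76.3%, and LYN supplied 13.3%, 15.5% and 14.5%. With the longest transcript the FYN share was 4.48%, 9.72% and 9.84% and the SRC share 10.6%, 3.44% and 4.59%. The sum itself was 1847 ± 72.0 per kilobase in DMSO, 2540 ± 91.0 in JQ1 and 2043 ± 32.0 in I-BET 762 libraries. CSK relative to that sum was 0.122 ± 0.0177, 0.0837 ± 0.0106 and 0.103 ± 0.00490. The I-BET 762 libraries (0.0995 to 0.108) overlapped the DMSO libraries (0.107 to 0.142) in this measure. With the longest transcript the means were 0.176, 0.120 and 0.147. These are descriptions without a test.

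**Figure D3:**
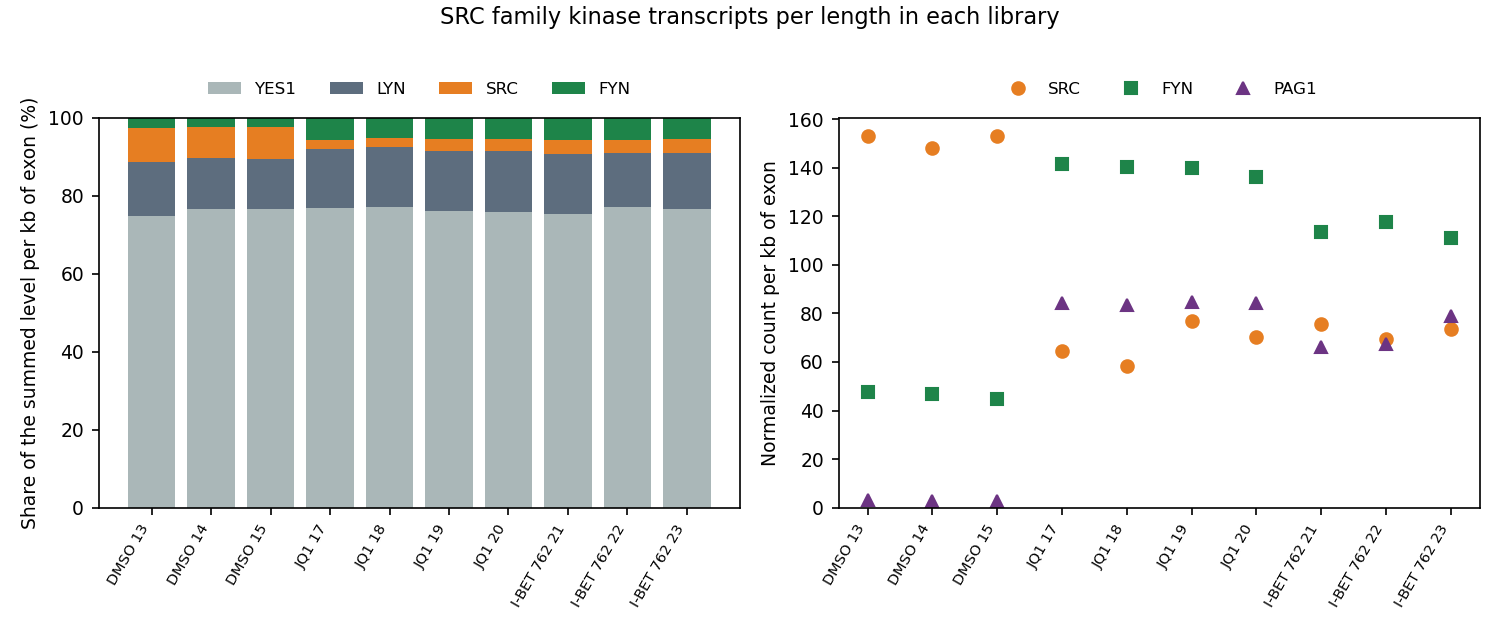
Share of SRC, FYN, YES1 and LYN in their summed normalized count per kilobase of exon, in each library. YES1 holds between 74.9% and 77.1% in all 10 libraries, SRC holds 8.21% on average in DMSO against 2.67% in JQ1 and 3.57% in I-BET 762, and FYN holds 2.52% against 5.49% and 5.58%.

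The other genes of the pathway were taken from 6 lists with 60 genes in all, of which 57 were in the table and 45 were tested. With JQ1, 3 of the 45 rose and 12 fell by more than 1.5-fold, where 13.3% of all tested genes rose and 22.8% fell. By adjusted p alone 20 rose, 19 fell and 6 did not pass, where 36.0% of all tested genes rose and 35.6% fell. With I-BET 762, 3 rose and 10 fell by more than 1.5-fold, beside 8.96% and 17.9% of all tested genes, and by adjusted p alone 16 rose, 19 fell and 10 did not pass, beside 29.9% and 31.3%. The counts of the single lists below are by adjusted p, are to be read against these shares (71.7% in either direction with JQ1 and 61.1% with I-BET 762), and show nothing particular to a list. PTPN6 is among the 3 that rose more than 1.5-fold with each inhibitor, and it passed the filter for testing only through treated libraries. The median log2 fold change over the 45 genes was 0.03 with either inhibitor. BLK, SIT1 and TRAT1 had no entry in the table.

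PTK6, a kinase related to the SRC family that lacks its membrane anchor, fell with I-BET 762 (-0.81, limma adjusted p = 0.0445) and had a value of -0.49 with JQ1 (limma adjusted p = 0.164). The I-BET 762 call of PTK6 was lost on leaving out DMSO replicate 13 or 14 (limma adjusted p = 0.161 and 0.111) or I-BET 762 replicate 21, 22 or 23 (limma adjusted p = 0.0557, 0.0521 and 0.160), and with every detected gene in the fit (limma adjusted p = 0.0893).

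Among the CSK relative, the other transmembrane adaptors and the partners of PAG1, 5 of 9 genes were tested, and 3 rose and 1 fell by adjusted p with either inhibitor, where 71.7% of all tested genes passed with JQ1 and 61.1% with I-BET 762. MATK, the CSK homologous kinase, fell from 345 ± 30.8 normalized counts to 48.0 ± 8.36 in JQ1 libraries, and in I-BET 762 libraries it was 56.5 ± 10.4. Its log2 fold changes were -2.83 (SE 0.17, limma adjusted p = 3.84e-10) and -2.60 (SE 0.18, limma adjusted p = 5.87e-09), whereas CSK itself did not pass. SLC9A3R1, also named NHERF1, a scaffold that links PAG1 to ezrin and the cytoskeleton, rose by 1.03 (SE 0.06, limma adjusted p = 4.51e-10) and 0.86 (SE 0.07, limma adjusted p = 1.97e-08). EZR, which encodes ezrin and had the highest level per kilobase of this list, rose by 0.56 (SE 0.04, limma adjusted p = 1.13e-08) and 0.35 (SE 0.05, limma adjusted p = 1.12e-05), under 1.5-fold.

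Of 10 other phosphatases that act on SRC family kinases, 7 were tested, and 4 rose and 2 fell by adjusted p with either inhibitor, beside the same 71.7% and 61.1% of all tested genes. PTPN6, the SHP1 phosphatase related to PTPN11, rose from 9.96 ± 5.24 normalized counts to means of 46.3 ± 8.48 with JQ1 and 26.4 ± 4.23 with I-BET 762. Its DMSO libraries ran from only 5.46 to 15.7, so PTPN6 passed the filter for testing only through the treated libraries, where it is high. Its change is therefore given as a description, although it stays in the counts of its list. The receptor phosphatase PTPRF, the most abundant of the list per kilobase, fell from 9077 ± 499 to 3938 ± 419 and 5702 ± 171, by -1.21 and -0.67 (limma adjusted p = 3.04e-10 and 1.31e-06).

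Of 7 docking partners of PTPN11, 6 were tested, and 4 fell and 2 rose by adjusted p with either inhibitor, where 35.6% of all tested genes fell and 36.0% rose with JQ1, and 31.3% and 29.9% with I-BET 762. SIRPA, a membrane receptor, fell by -1.78 with JQ1 and -1.44 with I-BET 762 (limma adjusted p = 5.97e-10 and 3.65e-08). IRS1, the insulin receptor adaptor, fell by -1.37 and -0.97 (limma adjusted p = 2.38e-06 and 0.000250). The docking proteins GAB1 and GAB2 fell by -0.80 and -1.22 with JQ1 (limma adjusted p = 6.26e-07 and 2.08e-09) and by -0.50 each with I-BET 762 (limma adjusted p = 0.000275 and 0.000138). In this fit GAB2 was the only tested gene of the 6 lists that differed by over 1.5-fold between the inhibitors, lower with JQ1 by -0.71 (limma adjusted p = 2.11e-05).

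Of 22 SRC substrates and scaffolds, 21 were tested. With JQ1, 10 rose and 8 fell by adjusted p, beside 71.7% of all tested genes in either direction, and with I-BET 762, 6 rose and 8 fell, beside 61.1%. NEDD9, a focal adhesion scaffold, rose from 48.0 ± 9.53 normalized counts to 181 ± 14.7 and 150.2 ± 7.85, by 1.91 and 1.65 on the log2 scale (limma adjusted p = 6.23e-09 and 1.63e-07). SH3PXD2A, the invadopodium scaffold TKS5, fell from 3646 ± 82.6 to 1124 ± 89.1 and 1589 ± 16.2, by -1.70 and -1.20 (limma adjusted p = 9.87e-13 and 3.55e-10). CDCP1, a transmembrane substrate of SRC, fell by -0.96 and -1.12 (limma adjusted p = 1.78e-07 and 1.29e-07), and the kinase PTK2B by -1.02 and -0.94 (limma adjusted p = 1.49e-05 and 0.000101).

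Of 5 raft and caveolar proteins, 4 were tested. With JQ1, 1 rose and 3 fell by adjusted p (71.7% of all tested genes passed), and with I-BET 762, 1 rose and 2 fell (61.1% passed). CAV1, the main caveolar coat protein, fell by -0.69 and by -0.58, just past 1.5-fold (limma adjusted p = 2.37e-08 and 7.16e-07). The I-BET 762 value fell short of 1.5-fold without DMSO replicate 14 (-0.56) or 15 (-0.57) and without I-BET 762 replicate 22 (-0.58) or 23 (-0.57). It also fell just short with a pseudocount of 5 (-0.5847) and after rescaling to equal upper quartiles (-0.5839). FLOT2, which marks the rafts in which PAG1 resides, fell by -0.69 with JQ1 and by -0.38 with I-BET 762 (limma adjusted p = 1.96e-08 and 5.28e-05).

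**Figure D4:**
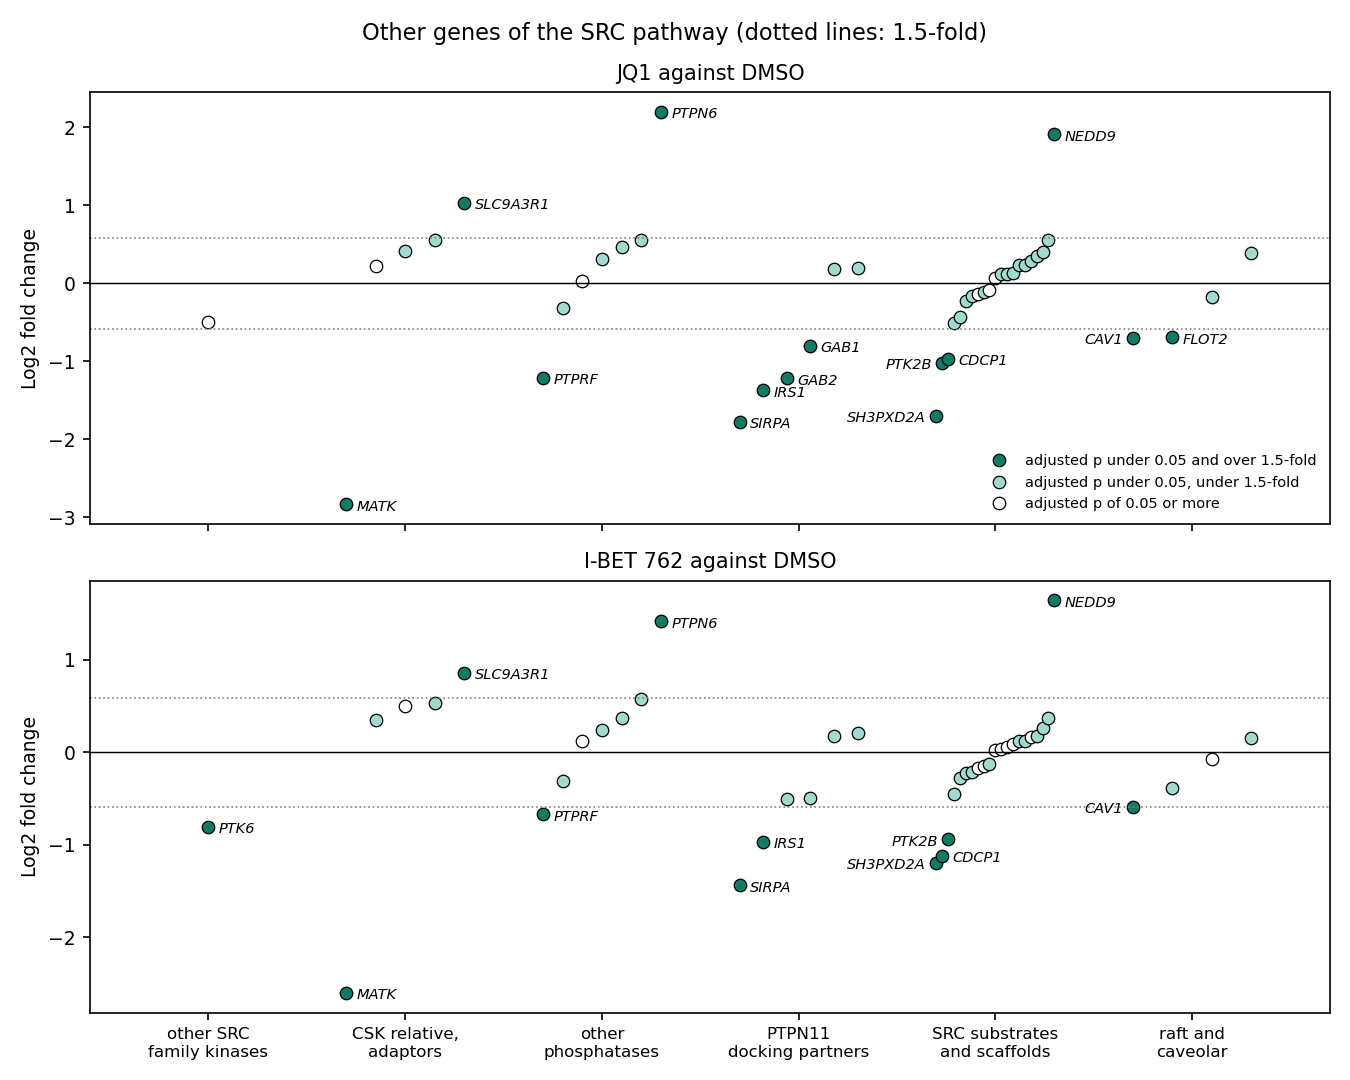
Log2 fold changes of 44 of the 45 tested genes of the 6 lists with JQ1 (upper panel) and I-BET 762 (lower panel), with genes named that passed adjusted p and 1.5-fold, which the dotted lines mark. MATK lies lowest of the genes drawn in both panels, at -2.83 with JQ1 and -2.60 with I-BET 762. The highest are PTPN6 with JQ1 and NEDD9 with I-BET 762, at 1.65. PTPN6 passed the filter for testing only through treated libraries and is drawn as a description.

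The genes whose pattern was most like that of PAG1 were found by the root mean square distance of log2 values over the 10 libraries, after subtraction of the DMSO mean of each gene. The nearest of the 14838 other genes were MGAT4A (distance 0.389), LINC01419 (0.552), ELAPOR2 (0.627), PRKCB (0.743) and SIPA1L2 (0.798), where the median gene had a distance of 3.94. MGAT4A, a glycosyltransferase gene, had means of 7.80 normalized counts in DMSO, 187 in JQ1 and 146 in I-BET 762 libraries. PRKCB, a protein kinase C gene, had means of 4.93, 92.8 and 76.2. All 5 genes were at 21.8 normalized counts or less in every DMSO library, LINC01419 at no more than 1.85, so their distances depend on the value of 1 added before the logarithm. MGAT4A, LINC01419, ELAPOR2 and PRKCB stayed under 10 in every DMSO library, so they passed the filter only through treated libraries. PAG1 was chosen for its large rise, so this distance mostly orders genes by the size of their own rise. The median distance likewise follows largely from the PAG1 change.

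**Figure D5:**
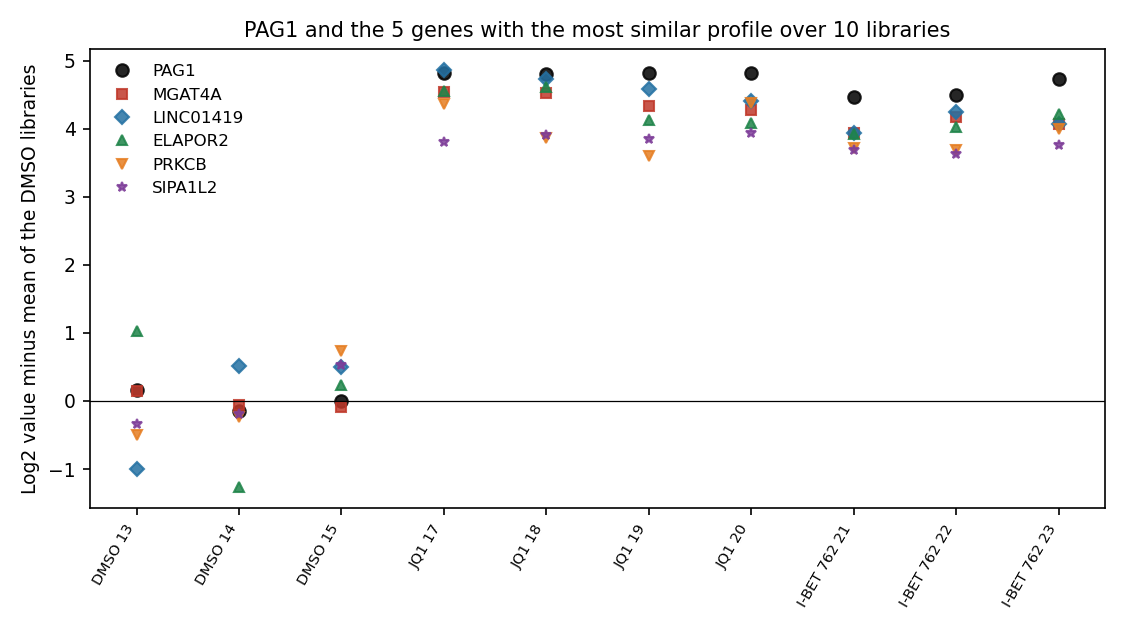
Log2 values of PAG1 and the 5 genes nearest to it, with the DMSO mean of each gene subtracted, in each of the 10 libraries. The DMSO values scatter around 0, which is their mean by construction, from -1.26 to 1.02 in ELAPOR2. All 6 genes lie higher in every treated library. By group mean PAG1 is uppermost, at 4.82 in JQ1 and 4.56 in I-BET 762. In JQ1 replicate 17 LINC01419 lies above PAG1, at 4.86 against 4.82.

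The tested protein-coding genes on either side of PAG1 did not share its change. ZNF704, 93029 bases away on the side of lower coordinates, fell with JQ1 (-1.26, SE 0.21, limma adjusted p = 4.98e-05) and with I-BET 762 (-1.02, SE 0.22, limma adjusted p = 0.000942). FABP5, a fatty acid binding protein gene 168468 bases away on the other side, rose by 0.21 with JQ1 (SE 0.07, limma adjusted p = 0.00951) and had a value of -0.08 with I-BET 762 (SE 0.07, limma adjusted p = 0.317). The JQ1 call of FABP5 was lost at equal totals (0.03, limma adjusted p = 0.698) and without DMSO replicate 13 (0.18, limma adjusted p = 0.0502), and at equal totals the I-BET 762 value passed (-0.18, limma adjusted p = 0.0202).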

How the data were processed

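RNA was isolated with Trizol, and strand-specific total RNA libraries were sequenced on a NovaSeq instrument. Per the labels and the methods of the study, reads were checked with FastQC 0.73, trimmed with Trimmomatic, mapped to hg38 with HISAT2 2.2.1, counted with featureCounts 2.0.3 on Gencode V41 and normalized with DESeq2. The authors deposited log2(normalized count + 1) values per gene symbol, and the study states that outlier samples were excluded. DMSO replicate 16 and I-BET 762 replicate 24 were not analysed here.

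The deposited values were converted back to normalized counts. Between 99.74% and 99.77% of values per library were whole reads after division by 1 scaling factor per library (tolerance 0.02 reads). The 12 within-group pairs of libraries held no identical pair. Genes with a normalized count of at least 10 in at least 3 libraries were tested with limma 3.58.1 in R 4.3.3 (empirical Bayes with intensity trend, all 10 libraries in 1 model, Benjamini-Hochberg adjustment over 14839 genes). A gene was called at an adjusted p under 0.05 and a change over 1.5-fold. The procedure was also run on simulated counts, with few changed genes and the same relative spread for every gene. That setting differs from these data, so the run does not measure accuracy here. Positions and exon lengths came from Gencode V44 (GRCh38), to which 21798 symbols (95.7%) matched, and exact copies were sought with minimap2 2.31.

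The 8 genes and the lists were chosen with earlier results of these data known. 1 result of the lists is not reported here. The list genes called in any comparison were named beside them, and EZR for having the highest level per kilobase of its list. For the other lists the gene with the highest level is named only where it was called. Also named were the 5 genes nearest to PAG1, its neighbours, HEXIM1 and MYC. The alternatives tried were other pseudocounts, filters, scalings, models and fold thresholds, limma-voom on the recovered reads, and leaving out each library.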

Additional observations from a re-analysis of the deposited data

Results flagged for a closer look

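LYN was flagged in the JQ1 group because 1 library stood apart from the others. JQ1 replicate 18 had 2558 normalized counts, and the other 3 libraries lay between 2356 and 2390.1. Its gap to the nearest library was 0.831 of the range of the group, just above Dixon's critical value for 4 samples. Groups of 4 or more samples were available for JQ1 alone, so 8 gene and group combinations were examined, and chance flags about 1 in 20. Within JQ1, replicate 18 also had the highest normalized counts of YES1, PTPN11 and PTPRA and the lowest of CSK, SRC and PAG1. It stood apart beyond these genes as well. The chi-square per gene of its reads against the other JQ1 libraries was 20.6 to 22.1, and 5.38 to 15.3 between those. Without it, the log2 fold change of LYN with JQ1 was 0.66 (limma adjusted p = 1.73e-09), that of SRC was -1.10 (limma adjusted p = 7.22e-10) and that of CSK was -0.01 (limma adjusted p = 0.891).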

How the results depend on the processing

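Over 19 alternatives, 385 of 399 values of the 7 genes beside PAG1 kept their direction and their side of the adjusted p threshold, 4 lost the call (all YES1 with I-BET 762, given in the report), 1 gained it (CSK with JQ1 at equal totals) and 9 reversed. All 9 were differences between the inhibitors that had not passed the test. At equal totals these were -0.078 for CSK, -0.0016 for PTPN11 and -0.074 for PTPRA, and on leaving out 1 library CSK ranged from -0.027 to 0.084 and PTPRA from -0.00098 to 0.033. On leaving out 1 library, the PAG1 change lay between 4.74 and 4.90 for JQ1 and between 4.48 and 4.64 for I-BET 762, and with a pseudocount of 5 it was 4.66 for JQ1. With no fold threshold 6, 6 and 3 of the 7 genes were called with JQ1, with I-BET 762 and between the inhibitors, against 3, 2 and 0. Over all genes 5358, 3991 and 788 were called, 10633, 9073 and 4047 with no fold threshold, 2958, 2108 and 206 with a 2-fold threshold, and 3359, 2338 and 418 among genes with a mean of at least 100. For the 20 other genes named with a fitted change, PTPN6 among them, 760 of 769 values kept direction and side of the threshold. Of the rest, 8 lost the call (PTK6 and FABP5), 1 gained it (FABP5) and 0 reversed. By limma-voom on the recovered reads 1982 rose and 3415 fell with JQ1, and 1330 rose and 2703 fell with I-BET 762. Of the pathway genes 15, 13 and 1 were called, and 39, 35 and 10 with no fold threshold. With a 2-fold threshold 7 were called with I-BET 762 and 0 between the inhibitors, and with a mean of at least 100 there were 8 with I-BET 762. Between the inhibitors there were 2 with a pseudocount of 5, 3 at equal totals, 2 with only the compared groups, 2 with limma-voom and 1 to 2 on leaving out 1 library. A stricter or absent threshold changes these counts by its construction, and the cause of the other shifts was not tested. No paired analysis was possible because the replicate numbers differ between all groups. PAG1 rested on 31 to 37 reads per DMSO library, which limits the precision of its fold change, and intervals cover the spread between these libraries.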
